A study of Mus musculus with 42 samples.

Results

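Kidney RNA of mice given enzastaurin, a small-molecule inhibitor of protein kinase C that was made with the beta isoform as its main target, was compared with kidney RNA of mice given the same diet without a compound. The labels for tissue and compound picked out the libraries, which gave 4 enzastaurin and 6 control libraries, 10 of the 42 libraries of the series. All animals were male and of the UM-HET3 stock, which is genetically heterogeneous because it comes from a 4-way cross of inbred strains. The enzastaurin mice ate Purina 5LG6 chow with enzastaurin at 75 ppm from 3 months of age for 1 month and were killed at 4 months. Their control littermates ate the plain chow for the same time. A further 20 kidney libraries, 4 each of mice given ascorbyl-palmitate (6.3 ppm), AZD8055 (20 ppm), GDC-0941 (50 ppm), KU0063794 (10 ppm) or AS-703026 (30 ppm) in the same chow, were used for a second comparison. The labels name no transgene or deletion, and the libraries of a group are described as biological replicates.

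Protein kinase C is a family of serine and threonine kinases that act below receptors coupled to phospholipase C. Conventional isoforms need calcium and diacylglycerol, a second class needs diacylglycerol alone, and atypical isoforms need neither. In the kidney these kinases take part in the control of tubular ion transport, vascular tone and the response of the glomerulus to high glucose, and their activity is set mainly by second messengers and phosphorylation rather than by the amount of their messenger RNA.

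Expression was measured by CEL-seq, in which the RNA of each animal gets its own barcode and fragments near the 3′ end of messenger RNAs are read. A level in CPM (a gene's counts scaled to a fixed library total) is therefore not divided by transcript length and is compared here only between libraries. The enzastaurin libraries held 1157094, 3828065, 3447364 and 3257442 counts, and the control libraries held 863605 to 2559118 counts. The libraries of the 10 animals were those of kidney by their markers. The 20 proximal tubule genes listed summed to between 62279 and 74210 CPM in enzastaurin libraries and between 58972 and 72601 CPM in control libraries, and the summed levels of podocyte, endothelial and thick ascending limb genes overlapped between the groups. Genes of adrenal cortex reached at most 7.31 CPM in sum in an enzastaurin library and 9.51 CPM in a control library, and genes of skeletal muscle at most 3.48 and 5.03 CPM.

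Libraries stood apart in 3 ways before any comparison. Enzastaurin libraries 2 to 4 held 3257442 to 3828065 counts, each more than the deepest control library, which held 2559118. The share of counts on 13 satellite-like gene models, which are built of repeated DNA, was 2.67%, 0.035%, 0.0446% and 0.0488% in enzastaurin libraries 1 to 4, against 1.07%, 12.5%, 5.80%, 0.832%, 1.81% and 0.0555% in control libraries 1 to 6. Thus 3 of 4 enzastaurin libraries but 1 of 6 control libraries lay under 0.1%. Neither this share nor the total count can be told apart well from the diet with these libraries. Enzastaurin library 1 also held transcripts of hepatocytes at levels far above those of all the other 9 libraries, as described below.

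No gene passed an adjusted p of 0.05 for enzastaurin against control in edgeR's quasi-likelihood test with Benjamini-Hochberg adjustment (0 of 11719 genes, 0%), and the smallest adjusted p was 0.146. At an unadjusted p under 0.05 there were 915 genes (7.81% of those tested), of which 283 had higher means in enzastaurin kidneys (2.41%) and 632 lower means (5.39%). The count depended on the method and on 2 control libraries. DESeq2 called 27 genes (0.23%), 2 higher and 25 lower, and limma voom with sample weights called 154 genes (1.31%), 27 higher and 127 lower. Without control library 2 edgeR called 60 genes (4 higher, 56 lower; 0.51% in all), and without control library 6 it called 18 (1 higher, 17 lower; 0.156%), whereas leaving out any other library of the contrast gave 0. DESeq2, voom and the 2 edgeR fits without control library 2 or 6 shared 14 genes, and Sil1 was the one of them with a higher level in enzastaurin kidneys.

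Of 9 listed isoforms of the drug's target family, 8 passed the low-count filter and were tested, and none of the 8 passed the test. The conventional isoform Prkca had 16.2, 17.3, 24.7 and 16.8 CPM in enzastaurin libraries 1 to 4, against a lowest, median and highest value of 16.7, 26 and 36.2 CPM in controls (log2 change -0.43 ± 0.20 (SE), adjusted p = 0.607, edgeR). Prkcb, the isoform that enzastaurin was made to inhibit, had 3.41, 4.05, 0.833 and 2.17 CPM in enzastaurin libraries and 0.814, 2.46 and 3.29 CPM in controls, levels that rest on few counts, and the groups overlapped (log2 change 0.15 ± 0.58 (SE), adjusted p = 0.977, edgeR). Among the isoforms that need diacylglycerol alone, Prkcd had 56.2, 64.7, 66.4 and 60.8 CPM in enzastaurin libraries, against 47.1, 49.6 and 60.4 CPM in controls, and its log2 change was 0.29. Prkce, Prkch and Prkcq had log2 changes of -0.20, 0.39 and 0.18. The atypical isoform Prkci had 22.1, 27, 23.9 and 20.8 CPM in enzastaurin libraries, against 23.6, 29.8 and 38.3 CPM in controls (log2 change -0.40 ± 0.20 (SE), adjusted p = 0.645, edgeR). Prkcz, the other atypical isoform, had a log2 change of -0.05. Of the 8 isoforms tested, 4 had a log2 change above 0 and 4 below, with a median of 0.05, beside a median of -0.01 over all genes tested.

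Genes that act around the kinase gave no call either. Of 21 tested genes for the supply and removal of diacylglycerol and for its other receptors, 6 had a log2 change above 0 and the median was -0.17. Of the 21, 1 was at an unadjusted p under 0.05, beside 7.81% of all genes tested. It was Chn2, the Rac-GTPase activating protein beta-chimaerin, which binds diacylglycerol. Chn2 had 34.1, 24.3, 20.3 and 29.8 CPM in enzastaurin libraries, against 9.88, 16.1 and 22 CPM in controls (log2 change 0.69 ± 0.25 (SE), adjusted p = 0.462, edgeR). Against the other 5 compounds its log2 change was 0.28. The 19 tested anchors, substrates and upstream kinase of the family had a median of 0.06 and none at an unadjusted p under 0.05. Immediate early and AP-1 genes, the transcription factors and early targets classically induced through this kinase in cultured cells, had log2 changes above 0 in 3 of 18 tested members, with a median of -0.10 and none at an unadjusted p under 0.05.

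Enzastaurin was also developed as an agent against tumour vessels, so genes of vascular growth were listed. Vegfa, the main growth factor of endothelial cells, had 58.8, 75.5, 101 and 76 CPM in enzastaurin libraries, against 78.9, 122 and 163 CPM in controls (log2 change -0.59 ± 0.22 (SE), adjusted p = 0.493, edgeR). Angpt1, the ligand that stabilises vessels through Tek, had 6.82, 7.55, 9.44 and 7.45 CPM in enzastaurin libraries, against 8.25, 12.9 and 15.4 CPM in controls (log2 change -0.60 ± 0.28 (SE), adjusted p = 0.622; edgeR). Apln, the peptide apelin, had 6.82, 14.8, 4.72 and 14.9 CPM in enzastaurin libraries, against 3.29, 6.15 and 6.63 CPM in controls (log2 change 0.95 ± 0.42 (SE), adjusted p = 0.598, edgeR). Values of each of these genes overlapped between the groups, and the 16 tested members of the list had a median log2 change of -0.05. Control libraries 2 and 6 held the lowest control values of Vegfa, at 78.9 and 83.4 CPM. Against the other 5 compounds the log2 changes of Vegfa, Angpt1 and Apln were -0.008, -0.33 and 0.08. Among 22 tested genes of the PI3K, AKT and S6 kinase pathway, Rictor, the defining subunit of mTOR complex 2, which phosphorylates conventional protein kinase C, had 16.2, 13.2, 11.9 and 17.4 CPM in enzastaurin libraries, against 14.7, 27 and 34.6 CPM in controls (log2 change -0.82 ± 0.27 (SE), adjusted p = 0.377, edgeR). Control libraries 1 and 6 were the controls closest to the enzastaurin range for Rictor, and control library 6 lay within it.

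All 4 enzastaurin libraries lay above all 6 controls for 102 of 11719 genes (0.87%) and below all 6 for 100 genes (0.853%). Of the genes with higher levels, Apoh (chr11:108343354-108414396, + strand, mm10), which encodes the phospholipid-binding plasma protein beta-2-glycoprotein I, had 155, 80.1, 72.5 and 103 CPM in enzastaurin libraries, against a lowest, median and highest value of 29.5, 44.9 and 57.1 CPM in controls. The means were 103 ± 37.2 CPM in enzastaurin libraries and 45.8 ± 10.0 CPM in controls (SD, n = 4 and 6), a 2.22-fold difference that did not pass the test (log2 change 1.15 ± 0.26 (SE), adjusted p = 0.146, edgeR). The highest value was that of library 1, which held hepatocyte transcripts, and without it the log2 change was 0.91. Apoh and Prkca lie on opposite strands and overlap over a short stretch where both genes start.

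Sil1 (chr18:35266396-35499780, - strand), the nucleotide exchange factor of the endoplasmic reticulum chaperone BiP, had 56.2, 64.7, 76.4 and 68.3 CPM in enzastaurin libraries, against 26.6, 37.3 and 54.7 CPM in controls. Each enzastaurin value lay above each control value, by a margin that was narrow for library 1 against control library 6 (log2 change 0.74 ± 0.17 (SE), adjusted p = 0.146, edgeR). Stard3nl (chr13:19357676-19395795, - strand), a late endosome protein that tethers this compartment to the endoplasmic reticulum, had 43.4, 32.9, 33.9 and 35.1 CPM in enzastaurin libraries, against 16.8, 18.5 and 28.9 CPM in controls (log2 change 0.81 ± 0.20 (SE), adjusted p = 0.146, edgeR). Ucp2, a carrier of the inner mitochondrial membrane, had 375, 249, 233 and 296 CPM in enzastaurin libraries, against 86.9, 117 and 216 CPM in controls, with control library 2 the highest control (log2 change 1.12 ± 0.30 (SE), adjusted p = 0.214, edgeR).

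Cyfip1, a subunit of the WAVE complex that regulates actin branching, had 93.7, 71.8, 56.4 and 79.1 CPM in enzastaurin libraries, against 42.2, 51.7 and 56 CPM in controls, so the lowest enzastaurin library was separated from the highest control by less than 1 CPM (log2 change 0.56 ± 0.15 (SE), adjusted p = 0.214, edgeR). Gmpr, the enzyme that converts GMP to IMP, had 92.9, 109.8, 137 and 86.6 CPM in enzastaurin libraries, against 42.7, 70.7 and 76.9 CPM in controls (log2 change 0.74 ± 0.21 (SE), adjusted p = 0.258, edgeR). Sod3, the extracellular superoxide dismutase, had 969, 896, 817 and 846 CPM in enzastaurin libraries, against 479.6, 569 and 776 CPM in controls (log2 change 0.52 ± 0.15 (SE), adjusted p = 0.281, edgeR). In both genes the values of the groups did not overlap. Rcl1, which acts in the maturation of ribosomal RNA, was a low-count gene with 8.52, 11.1, 9.44 and 8.07 CPM in enzastaurin libraries, against 2.44, 5.07 and 5.79 CPM in controls (log2 change 0.96 ± 0.28 (SE), adjusted p = 0.285, edgeR).

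Several genes among those with the smallest p and higher means are also liver genes. Aldh1a1, a retinaldehyde dehydrogenase, had 127, 65.6, 46.1 and 75.7 CPM in enzastaurin libraries, against 34.9, 44.1 and 46.9 CPM in controls, so that library 1 was the highest and library 3 overlapped the controls (log2 change 0.86 ± 0.23 (SE), adjusted p = 0.214, edgeR). Its log2 change was 0.56 without library 1. Cyp2d9, a cytochrome P450 expressed more in male than female mice, had 202, 127, 208 and 274 CPM in enzastaurin libraries, against 47.7, 77.9 and 136 CPM in controls (log2 change 1.18 ± 0.38 (SE), adjusted p = 0.339, edgeR), and its log2 change was 1.19 without library 1. Cyp2d9 belongs to a family of near-identical genes, so its counts are uncertain. Gsta3, a glutathione transferase, had 106, 83.1, 74.2 and 76.3 CPM in enzastaurin libraries, against 39.4, 56.3 and 68.3 CPM in controls (log2 change 0.61 ± 0.19 (SE), adjusted p = 0.318, edgeR), and the groups did not overlap. Library 1 was the highest for Gsta3 too, and without it the log2 change was 0.50.

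**Figure D1:**
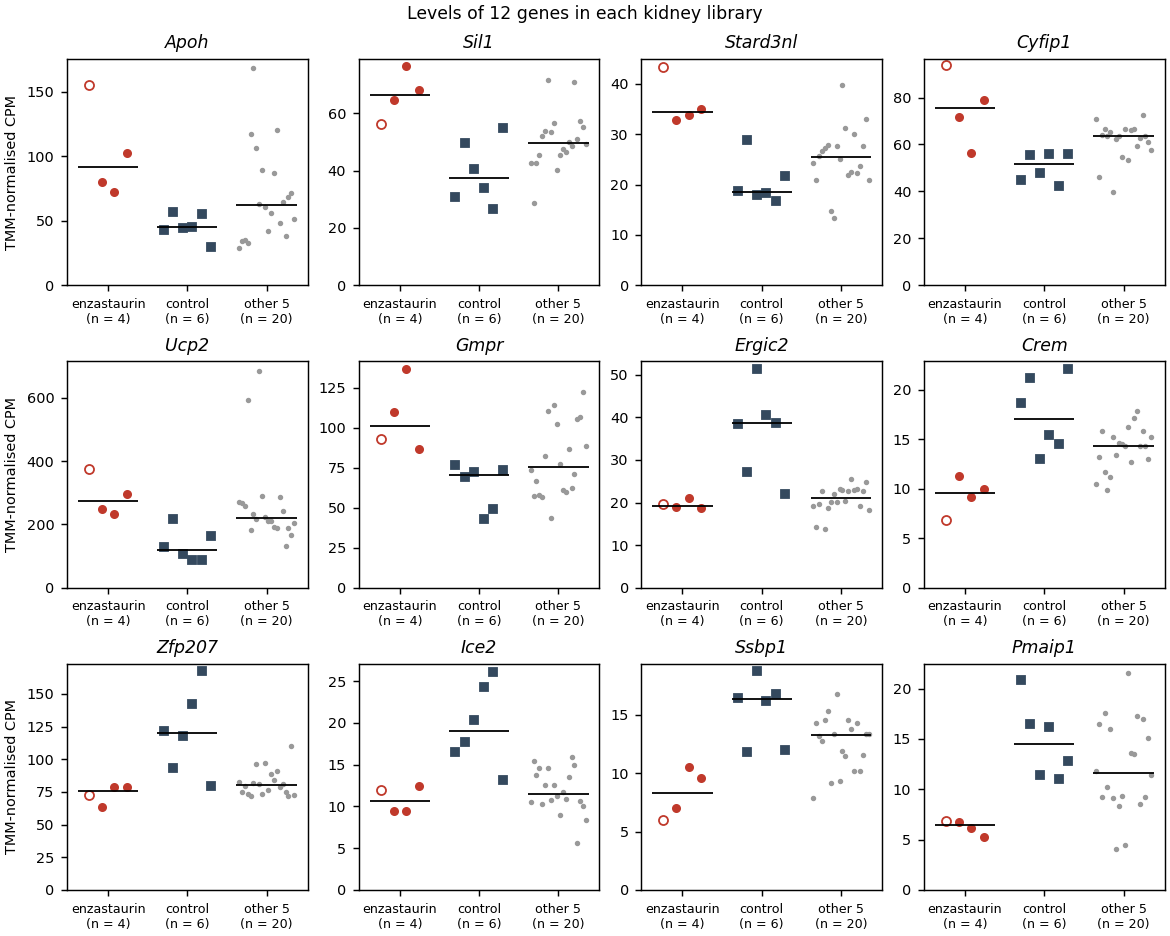
Levels in TMM-normalised CPM of 12 genes whose enzastaurin and control values did not overlap, one point per kidney library, with enzastaurin (red; library 1 open), control (dark squares) and the other 5 compounds (grey); horizontal lines are medians. For Ergic2 and Ice2 the enzastaurin points lie within the range of the other compounds. For Zfp207 library 2 (63.4 CPM) lies below it, and for Crem 17 of the 20 libraries of other compounds lie above all enzastaurin libraries.

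Of the genes with lower levels, Ergic2 (chr6:148179079-148212374, - strand), a protein of the compartment between endoplasmic reticulum and Golgi, had the smallest p of the comparison. It had 19.6, 18.9, 21.1 and 18.6 CPM in enzastaurin libraries, against 22.1, 38.6 and 51.3 CPM in controls, and the means were 19.6 ± 1.12 and 36.4 ± 10.4 CPM (SD, n = 4 and 6; log2 change -0.88 ± 0.18 (SE), adjusted p = 0.146, edgeR). The 4 enzastaurin values were within 3 CPM of each other, whereas control libraries 2 and 6 lay well below the other 4 controls. Crem (chr18:3266048-3337748, - strand), the cAMP-responsive element modulator, a transcription factor of the CREB family, had 6.82, 11.3, 9.17 and 9.93 CPM in enzastaurin libraries, against 13, 17.1 and 22.1 CPM in controls (log2 change -0.88 ± 0.19 (SE), adjusted p = 0.146, edgeR). Here control libraries 2 and 6 were the 2 highest controls.

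Pmaip1, the BH3-only cell death protein Noxa, had 6.82, 6.74, 6.11 and 5.27 CPM in enzastaurin libraries, against 11, 14.5 and 20.9 CPM in controls, a 0.426-fold level (log2 change -1.23 ± 0.35 (SE), adjusted p = 0.267, edgeR). Ssbp1, which binds single-stranded mitochondrial DNA, had 5.96, 7.01, 10.6 and 9.62 CPM in enzastaurin libraries, against 11.8, 16.3 and 18.7 CPM in controls (log2 change -0.83 ± 0.22 (SE), adjusted p = 0.214, edgeR). Neither gene's groups overlapped. Hdhd3, a predicted hydrolase, had 11.9, 11.9, 13.1 and 9.93 CPM in enzastaurin libraries, against 14.5, 16.3 and 18.2 CPM in controls (log2 change -0.49 ± 0.20 (SE), adjusted p = 0.574, edgeR), again without overlap.

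Of the other genes with small p and lower means, Zfp207, a zinc finger protein of the mitotic spindle and of splicing, had 72.4, 63.4, 78.6 and 78.5 CPM in enzastaurin libraries, against 79.9, 120.0 and 168 CPM in controls (log2 change -0.71 ± 0.16 (SE), adjusted p = 0.146, edgeR). Ice2, a subunit of the little elongation complex that transcribes small nuclear RNA genes, had 11.9, 9.44, 9.44 and 12.4 CPM in enzastaurin libraries, against 13.2, 19 and 26 CPM in controls (log2 change -0.87 ± 0.20 (SE), adjusted p = 0.146, edgeR). Tmpo, the lamina-associated polypeptide 2, had 57.1, 69.1, 55.3 and 58.6 CPM in enzastaurin libraries, against 74, 90.3 and 108 CPM in controls (log2 change -0.58 ± 0.14 (SE), adjusted p = 0.146, edgeR). In each of these genes the lowest control was library 6. Zmym2, a zinc finger protein of corepressor complexes, had 29, 35.9, 35.3 and 35.4 CPM in enzastaurin libraries, against 36.5, 67.1 and 70.0 CPM in controls (log2 change -0.77 ± 0.18 (SE), adjusted p = 0.146, edgeR). Zcchc7, known in human cells as a cofactor of nuclear RNA decay, had 17, 17.3, 18.6 and 19.2 CPM in enzastaurin libraries, against 20.0, 37.1 and 69.4 CPM in controls (log2 change -1.12 ± 0.27 (SE), adjusted p = 0.146, edgeR). Dusp11, an RNA triphosphatase, had 37.5, 40.7, 63.1 and 41.3 CPM in enzastaurin libraries, against 58.9, 81.9 and 101 CPM in controls, and its groups overlapped through library 3 (log2 change -0.78 ± 0.18 (SE), adjusted p = 0.146, edgeR).

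Splicing factors were the list whose members most often had low values in enzastaurin kidneys at an unadjusted p under 0.05. Of 46 listed SR, hnRNP and related proteins 43 were tested, 1 had a log2 change above 0, and 25 were lower at an unadjusted p under 0.05, beside 5.39% of all genes tested. Their median log2 change was -0.55, against -0.01 over all genes. Voom called 16 of the members lower, beside 1.08% of all genes, and DESeq2 called 3 lower, beside 0.213%. No member had groups that did not overlap. Srsf6, an SR protein that guides splice site choice, had 69.9, 89.8, 77.8 and 73.2 CPM in enzastaurin libraries, against 75.4, 159 and 203 CPM in controls (log2 change -0.90 ± 0.22 (SE), adjusted p = 0.146, edgeR). The control values fell into 4 high libraries (1, 3, 4 and 5) and the pair 2 and 6, of which library 2 lay within the enzastaurin range.

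The split of controls into libraries 1, 3, 4 and 5 above libraries 2 and 6 was also seen in Khdc4, Prpf38b, Ccnl1, Crebzf and Cpsf6, but not in Fubp1. Among genes with lower means described above, it was seen in Ergic2, Zfp207, Tmpo, Zmym2, Zcchc7, Dusp11, Ssbp1 and Vegfa. It was not seen in Ice2, Crem, Pmaip1, Hdhd3, Angpt1 or Rictor. Khdc4, an RNA-binding protein of the spliceosome, had 39.2, 37.5, 47.2 and 52.4 CPM in enzastaurin libraries, against 47.7, 97.6 and 118 CPM in controls (log2 change -0.99 ± 0.22 (SE), adjusted p = 0.146, edgeR). Prpf38b, a splicing factor, had 49.4, 50.7, 74.2 and 59.3 CPM in enzastaurin libraries, against 66, 135 and 151 CPM in controls (log2 change -1.02 ± 0.23 (SE), adjusted p = 0.146, edgeR). Ccnl1, the cyclin L1 that associates with splicing factors, had 20.4, 24, 28.3 and 25.8 CPM in enzastaurin libraries, against 20.9, 60.1 and 95 CPM in controls (log2 change -1.21 ± 0.29 (SE), adjusted p = 0.146, edgeR). In Ccnl1 and Khdc4 control library 6 was the lowest control, and in Prpf38b library 2 was. Fubp1, which binds single-stranded DNA upstream of Myc, had a log2 change of -0.88, and Crebzf, a basic leucine zipper protein, one of -1.22 (adjusted p = 0.146 and 0.146, edgeR). Of 20 tested genes of messenger RNA 3′ end processing, 8 had a log2 change above 0 and 4 were lower at an unadjusted p under 0.05, beside 5.39% of all genes tested. One of these 4 was Cpsf6, a subunit of cleavage factor I, with 59.6, 65.6, 71.9 and 63.3 CPM in enzastaurin libraries, against 58.3, 116 and 152 CPM in controls (log2 change -0.76 ± 0.18 (SE), adjusted p = 0.146, edgeR).

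Long noncoding RNAs that stay in the nucleus had a median log2 change of -0.65 over 15 tested members, all 15 below 0, beside 51.2% of all genes tested, and 8 lower at an unadjusted p under 0.05, beside 5.39% of all genes. Neat1, the scaffold of paraspeckles, had 146, 437, 504 and 307 CPM in enzastaurin libraries, against 204, 889 and 1399 CPM in controls (log2 change -1.25 ± 0.46 (SE), adjusted p = 0.489, edgeR). Malat1, which sits in nuclear speckles, had 749, 454, 548 and 479 CPM in enzastaurin libraries, against 282, 1304 and 2101 CPM in controls (log2 change -1.03 ± 0.40 (SE), adjusted p = 0.547, edgeR). For both RNAs control libraries 2 and 6 were the 2 lowest controls, inside the enzastaurin range for Neat1 and below it for Malat1. The median deviation of the splicing list from the control mean, in log2(CPM + 1), was -0.50, -0.48, -0.35 and -0.47 in enzastaurin libraries 1 to 4, against 0.08, -0.51, 0.16, 0.32, 0.38 and -0.42 in control libraries 1 to 6. For the noncoding RNAs it was -1.04, -0.56, -0.36 and -0.42 in enzastaurin libraries, against 0.20, -0.81, 0.27, 0.41, 0.64 and -0.73 in control libraries. Both lists were therefore as low in 2 of 6 control libraries as in the enzastaurin libraries.

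**Figure D2:**
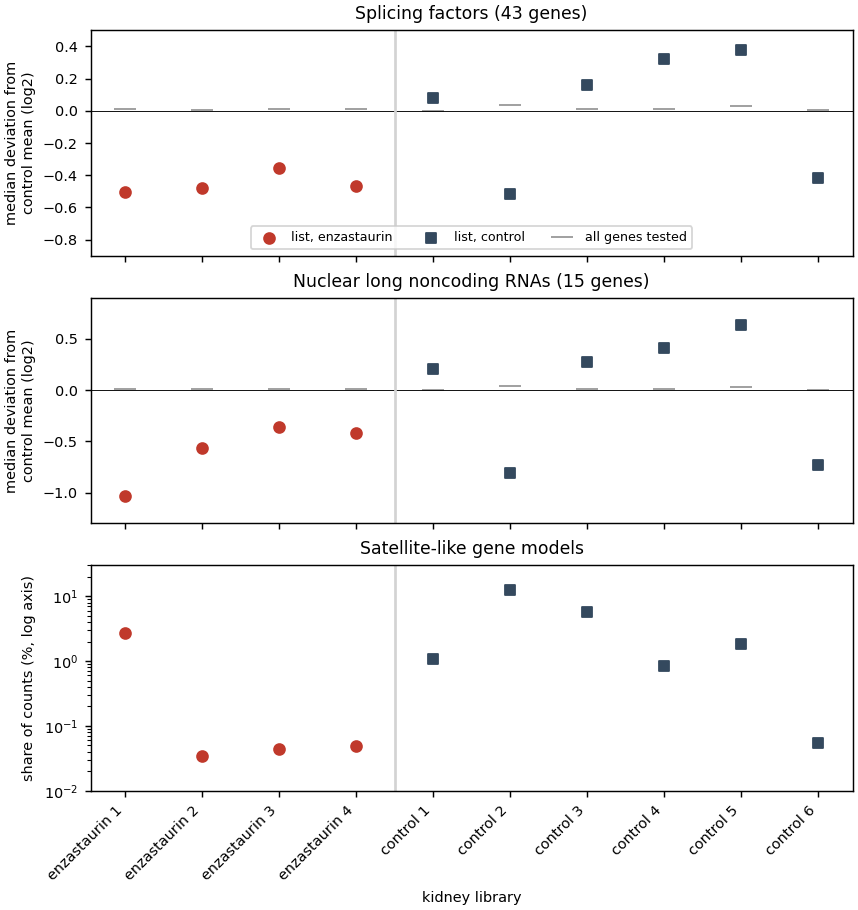
Median deviation from the control mean in log2(CPM + 1) of 43 splicing factors and 15 nuclear long noncoding RNAs in each kidney library, with the median over all genes tested as a grey dash, and the share of counts on satellite-like gene models on a log axis. Enzastaurin libraries (red) and control libraries 2 and 6 lie between -0.35 and -0.51 for splicing factors, while the satellite-like share of control library 2 (12.5%) and control library 6 (0.0555%) are at opposite ends.

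Controls 2 and 6 had the highest and the lowest satellite-like share of the controls. Fits within a range of that share have 1 library on one side, and their values rest on it. Among the libraries at 0.1% or more, with 1 enzastaurin and 5 control libraries, the median log2 change of the splicing list was -0.56 and that of the noncoding RNAs -1.28. Among the libraries under 0.1%, with 3 enzastaurin libraries and 1 control, the medians were 0.02 and 0.48. In fits that kept all libraries, the medians were -0.45 and -0.53 with the satellite-like share as covariate. They were -0.41 and -0.52 with a term for a share under 0.1%, and -0.43 and -0.65 with log2 total count as covariate. Against the kidney libraries of the other 5 compounds the splicing list had a median log2 change of 0.05 with 0 of 43 members at an unadjusted p under 0.05 in either direction, and the noncoding RNAs one of 0.08, also with 0 members.

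Promoters are shown for Ergic2, the gene with the smallest p, and for Ice2 and Ccnl1, since they held a match to an element that binds CREB-family factors. Windows of 250 bases before the transcription start were read from RefSeq's annotation of GRCm38.p6 for 19 of 25 genes described here, in 21 promoters. The AP-1 element TGACTCA, searched on both strands (TGAGTCA), was in the windows of 0 of the 19 genes, beside 5.16% of 27025 genes (4.46% of 32851 promoters). The cAMP response element TGACGTCA, the same on both strands, was in those of 2 genes, beside 1.77% of genes (1.55% of promoters); it shares no full match with the AP-1 element. Capitals mark the match, which begins 85 bases before the start in Ice2 (chr9:69397748-69397997, + strand) and 18 bases before it in Ccnl1 (chr3:65958250-65958499, - strand); the Ergic2 window (chr6:148212375-148212624, - strand) holds none.
Ergic2: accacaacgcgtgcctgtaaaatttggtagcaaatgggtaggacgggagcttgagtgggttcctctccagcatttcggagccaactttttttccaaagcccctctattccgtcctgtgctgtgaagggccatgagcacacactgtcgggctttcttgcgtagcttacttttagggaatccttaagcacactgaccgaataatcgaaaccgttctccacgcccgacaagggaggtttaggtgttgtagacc
Ice2: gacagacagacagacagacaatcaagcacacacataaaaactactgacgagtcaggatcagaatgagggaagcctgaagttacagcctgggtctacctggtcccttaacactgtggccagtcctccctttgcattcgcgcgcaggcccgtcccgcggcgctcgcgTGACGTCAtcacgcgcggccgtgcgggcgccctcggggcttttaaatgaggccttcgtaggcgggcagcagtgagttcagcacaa
Ccnl1: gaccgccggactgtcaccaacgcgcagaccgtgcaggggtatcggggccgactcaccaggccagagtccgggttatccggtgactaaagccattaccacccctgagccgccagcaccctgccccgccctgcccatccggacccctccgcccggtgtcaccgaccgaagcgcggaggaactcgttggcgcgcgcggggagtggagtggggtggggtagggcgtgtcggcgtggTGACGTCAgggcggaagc

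Lists of metabolism leaned to higher means without a call. Of 28 tested genes of PPAR alpha and fatty acid oxidation, 26 had a log2 change above 0, with a median of 0.22 and 4 at an unadjusted p under 0.05, beside 2.41% of all genes tested. One of the 4 was Cyp4a10, a fatty acid omega-hydroxylase, with 163, 225, 63.3 and 279 CPM in enzastaurin libraries, against 58.3, 99.9 and 144 CPM in controls (log2 change 0.86 ± 0.39 (SE), adjusted p = 0.599, edgeR). Another was Acot1, a cytosolic acyl-CoA thioesterase named after its value was seen, with 168, 194, 109 and 218 CPM in enzastaurin libraries, against 62.5, 102 and 150.5 CPM in controls (log2 change 0.69 ± 0.34 (SE), adjusted p = 0.638, edgeR). Fabp1, also among the 4 and the liver fatty acid binding protein, was highest in enzastaurin library 1. The median of the list was 0.22 without library 1 as well, and -0.11 against the other 5 compounds.

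Glutathione genes and targets of the transcription factor NRF2 had a median log2 change of 0.21, with 18 of 22 tested members above 0, beside 48.8% of all genes tested, and 3 higher at an unadjusted p under 0.05, beside 2.41% of all genes. These 3 were Gsta3, given above, Nqo1 and Gstm1. Nqo1, a quinone reductase, had 46, 32.1, 22.2 and 28.2 CPM in enzastaurin libraries, against 14.7, 19.3 and 34.6 CPM in controls (log2 change 0.60 ± 0.27 (SE), adjusted p = 0.598, edgeR). Gstm1, a glutathione transferase with close copies, had 1165, 1539, 834 and 1359 CPM in enzastaurin libraries, against 669.9, 727 and 849 CPM in controls (log2 change 0.72 ± 0.34 (SE), adjusted p = 0.611, edgeR). Both genes overlapped between the groups. Against the other 5 compounds the list had a median log2 change of 0.07, with 1 member in each direction at an unadjusted p under 0.05. In that comparison Nqo1 had a log2 change of 0.20 and Gstm1 one of -0.29. Nuclear-encoded genes of oxidative phosphorylation had a median of 0.11 with 54 of 70 above 0, beside 48.8% of all genes, and none at an unadjusted p under 0.05. That median was 0.04 with the satellite-like share as covariate, 0.02 with log2 total count as covariate and -0.12 against the other 5 compounds. By library, its median deviation was -0.06 to 0.25 in enzastaurin libraries and -0.18 to 0.28 in controls, so the groups overlapped. Sterol synthesis genes had a median of 0.23 with 15 of 19 above 0 and 1 at an unadjusted p under 0.05. Against the other 5 compounds their median was 0.06.

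Among the segments of the nephron, the 11 tested genes of the thick ascending limb all had log2 changes above 0, beside 48.8% of all genes tested. They ran from 0.14 to 1.17 with a median of 0.34, and 1 was higher at an unadjusted p under 0.05, beside 2.41% of all genes. That gene was Cldn16, a tight junction protein for magnesium and calcium, with 9.37, 5.66, 5.00 and 8.69 CPM in enzastaurin libraries, against 0.737, 2.73 and 5.79 CPM in controls (log2 change 1.17 ± 0.45 (SE), adjusted p = 0.528, edgeR). Umod, the urinary protein uromodulin, a classical marker of the segment, had 1813, 2081, 959 and 1712 CPM in enzastaurin libraries, against 909.8, 973 and 1420.1 CPM in controls (log2 change 0.63 ± 0.36 (SE), adjusted p = 0.689, edgeR). The summed level of the segment's genes was 2169 to 3414 CPM in enzastaurin libraries and 1916 to 2816 CPM in controls. Against the other 5 compounds the list had a median log2 change of 0.07, Cldn16 one of -0.23 and Umod one of -0.002. In whole kidney RNA, more cells of a type and more RNA per cell cannot be told apart. Proximal tubule genes had a median log2 change of 0.06, and those of distal convoluted and connecting tubule one of -0.14.

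Genes of adipocytes, the cells of the fat around the kidney, had a lower median than any nephron list. Of 10 listed genes 7 were tested, 6 had a log2 change below 0 and the median was -0.95, with 0 at an unadjusted p under 0.05. Adipoq, the fat hormone adiponectin, had 2.56, 2.43, 2.22 and 2.48 CPM in enzastaurin libraries, against 2.95, 5.54 and 10.6 CPM in controls, without overlap (log2 change -1.29 ± 1.65 (SE), adjusted p = 0.886, edgeR). Its level was low in both groups. Cfd, the complement protease adipsin, had 25.6, 9.98, 14.7 and 13.7 CPM in enzastaurin libraries, against 16.9, 19.9 and 35.1 CPM in controls (log2 change -0.55, adjusted p = 0.938, edgeR), and the groups overlapped. The median of the list was -0.58 without control library 1. It was 0.16 with a term for a satellite-like share under 0.1%, which was chosen after seeing the data. With that share as covariate it was -0.56, and with log2 total count as covariate -0.71. In a fit of only the 10 libraries compared, where 3 of the genes were tested, it was -0.08. That median is over fewer genes, so it cannot be set against -0.95. In the main fit the tested genes with the highest levels, Fabp4, Cfd and Lpl, had log2 changes of -0.08, -0.55 and 0.09. Lpl, the lipoprotein lipase, made up most of the summed level of the list. That sum was 1229 to 2199 CPM in enzastaurin libraries and 1409 to 2393 CPM in controls. In the other compounds Adipoq reached 2843 CPM in 1 library, AZD8055 library 4, and the median was 2.69 CPM. Against the other compounds the list had a median log2 change of -2.07, or -0.41 without that library.

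Androgen-responsive genes of the proximal tubule had a median of 0.04, with 10 of 18 above 0 and 3 lower at an unadjusted p under 0.05, beside 5.39% of all genes tested. Of these, the organic anion transporter Slc22a30 had 184, 268, 263 and 234 CPM in enzastaurin libraries, against 207, 441 and 711 CPM in controls, and the related Slc22a28 had 135, 208, 192 and 127 CPM in enzastaurin libraries, against 177, 275 and 428 CPM in controls. Their log2 changes were -0.90 and -0.79 (adjusted p = 0.377 and 0.501, edgeR), and control libraries 3, 4 and 5 were the high ones in both. The lists for matrix and fibrosis, NADPH oxidase, tubular injury, the renin-angiotensin system, vitamin D and phosphate, interferon and chaperones had medians between -0.06 and 0.16, and at most 1 member in either direction at an unadjusted p under 0.05.

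**Figure D3:**
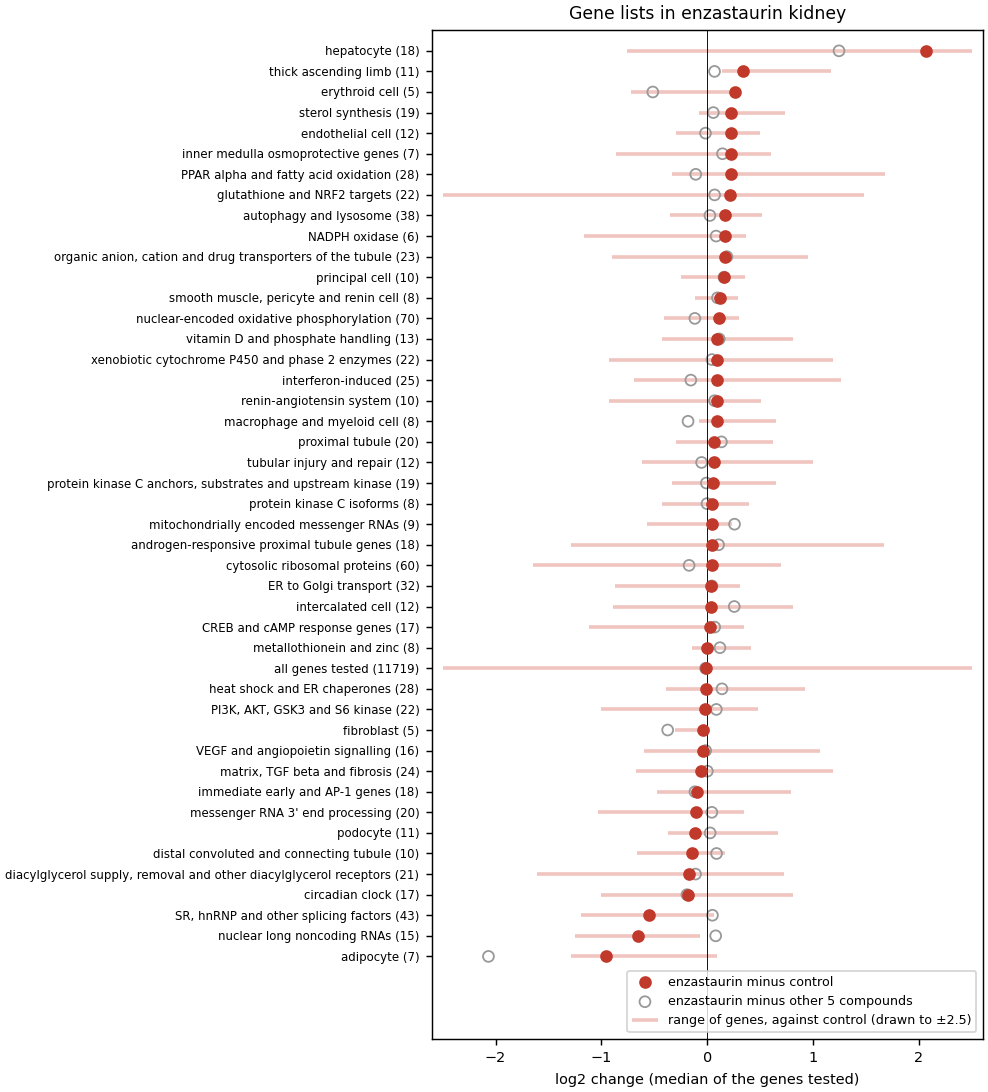
Median log2 change of the tested genes of each list for enzastaurin minus control (filled red) and for enzastaurin minus the other 5 compounds (open grey). Bars give the range of the list's genes against control. The number of tested genes is in brackets, and the satellite-like gene models and lists with fewer than 5 tested genes are not drawn. Adipocyte genes (-0.95), nuclear long noncoding RNAs (-0.65) and splicing factors (-0.55) have the lowest medians drawn against control. Their medians against the other compounds are -2.07, 0.08 and 0.05.

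Set against the 20 kidney libraries of the other 5 compounds, enzastaurin again gave 0 calls among 11719 genes in edgeR (0%), 0 with DESeq2 and 0 with voom, with 660 genes at an unadjusted p under 0.05 (5.63%), 289 higher (2.47%) and 371 lower (3.17%). The smallest p was that of Ces1g, a carboxylesterase expressed in liver and gut, with 12.8, 6.2, 56.4 and 17.1 CPM in enzastaurin libraries, against a lowest, median and highest value of 1.1, 4.35 and 17 CPM for the other compounds (log2 change 2.18 ± 0.41 (SE), adjusted p = 0.0878, edgeR). Library 3 was the high one, and the lowest enzastaurin library was inside the range of the other compounds. Controls held a lowest, median and highest value of 6.51, 8.12 and 23.6 CPM of Ces1g. Only library 3 lay above them (log2 change to controls 0.98, adjusted p = 0.670, edgeR). Igf2r, the receptor that carries IGF2 and lysosomal enzymes to lysosomes, had 208 to 235 CPM in enzastaurin libraries, against 107, 146 and 224 CPM for the other compounds (log2 change 0.53 ± 0.14 (SE), adjusted p = 0.861, edgeR), but 191, 207 and 236 CPM in controls, with a log2 change of 0.04 to them.

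Ppard, a nuclear receptor for fatty acids, had 42.6, 46.9, 52.8 and 41 CPM in enzastaurin libraries, against 6.39, 20.4 and 50.1 CPM for the other compounds (log2 change 1.10 ± 0.33 (SE), adjusted p = 0.861, edgeR). The iron transporter Slc11a2 had 135, 110.1, 138 and 163 CPM in enzastaurin libraries, against 57.1, 95.9 and 136 CPM for the other compounds (log2 change 0.48 ± 0.14 (SE), adjusted p = 0.861, edgeR). Nfkbia, the inhibitor of NF-kappa B, had 30.7, 31.6, 32.5 and 39.4 CPM in enzastaurin libraries, against 36.5, 45.3 and 85.4 CPM for the other compounds, of which 16 of 20 lay above all enzastaurin libraries (log2 change -0.48 ± 0.13 (SE), adjusted p = 0.861, edgeR). Against controls none of these 3 genes was at an unadjusted p under 0.05. Manbal, a small membrane protein gene, had 28.1, 17.8, 29.4 and 14.9 CPM in enzastaurin libraries, against 28.4, 33.5 and 49.1 CPM for the other compounds (log2 change -0.70 ± 0.18 (SE), adjusted p = 0.861, edgeR).

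The comparisons with control and with the other compounds use the same enzastaurin libraries, so their values are given side by side and not as separate evidence. Among the genes whose values did not overlap controls, Crem had log2 changes of -0.88 against control and -0.55 against the other compounds, Pmaip1 of -1.23 and -0.95, Ssbp1 of -0.83 and -0.57, and Hdhd3 of -0.49 and -0.64. For the genes with higher levels the values were 1.15 and 0.66 for Apoh, 0.81 and 0.52 for Stard3nl, and 0.74 and 0.41 for Sil1. They were 0.56 and 0.28 for Cyfip1, 0.74 and 0.44 for Gmpr, and 0.61 and 0.33 for Gsta3. For Ucp2 they were 1.12 and 0.18, for Rcl1 0.96 and 0.12, and for Sod3 0.52 and 0.12. Crem had a median of 14.3 CPM with the other compounds, between the medians of 9.55 CPM in enzastaurin and 17.1 CPM in control libraries. Ergic2, by contrast, had a log2 change of -0.09 against the other compounds, whose median was 21.2 CPM. Against these compounds Zfp207 had one of -0.17, Ice2 -0.14, Zmym2 -0.19, Zcchc7 -0.13 and Tmpo -0.23.

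Hepatocyte genes were examined library by library, since the low-count filter passed 18 of the 37 listed and the means of most of them rest on library 1. These levels are CPM on raw totals. Albumin (Alb), the main plasma protein of the liver, had 639.5, 1.57, 1.16 and 3.07 CPM in enzastaurin libraries 1 to 4, against 0 to 11.2 CPM in controls and 23465 ± 3819 CPM in the 4 liver libraries of enzastaurin mice (SD). Mup3, a major urinary protein with near-identical copies, had 273, 0, 0.58 and 0 CPM in enzastaurin kidney libraries, against 0 to 3.75 CPM in kidney controls. Ahsg, the plasma protein fetuin A, had 256, 0.261, 0.29 and 0.307 CPM in enzastaurin kidney libraries, against 0 to 4.48 CPM in kidney controls. Library 1 was thus far above all other 9 kidney libraries for each of these genes.

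It was the highest of the 10 libraries for 35 of the 37 genes, and the level in library 1 was between 0.448% and 4.07% of the mean of the liver libraries, with a median of 1.96% (2.73% for Alb). In the fit against control, Alb had a log2 change of 4.99 with all 4 enzastaurin libraries and -1.27 without library 1. Serpina1c, a plasma protease inhibitor, had 4.18 and 0.13, and Fgb, the fibrinogen beta chain, 3.49 and -0.79. The log2 changes of these genes came from library 1, and the source of the transcripts in it was not tested. Over 139 tested genes with at least 16-fold higher means in liver than in control kidney, the median deviation from the control mean was 1.02 in library 1, against 0.27, -0.03 and 0.15 in libraries 2 to 4.

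Hepatocyte genes that the kidney controls also held were less set apart. Ttr, the thyroid hormone carrier transthyretin, had 727, 201, 422 and 384 CPM in enzastaurin libraries, against 395 to 816 CPM in controls, and library 1 was inside the control range. Azgp1, a secreted glycoprotein, had 105, 3.13, 4.64 and 4.3 CPM in enzastaurin libraries, against 6.00 to 87.6 CPM in controls. Apoh was the 1 hepatocyte gene of the 37 for which libraries 2 to 4 each lay above every control. The share of all genes with that order was not computed, so this count has no background. Apoh had 157, 77.6, 75.7 and 102 CPM in enzastaurin libraries 1 to 4, against 29.7 to 58.4 CPM in controls. Leaving out library 1 gave 0 called genes over the whole table, with 872 at an unadjusted p under 0.05, and the medians of the splicing and noncoding lists were then -0.49 and -0.65.

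**Figure D4:**
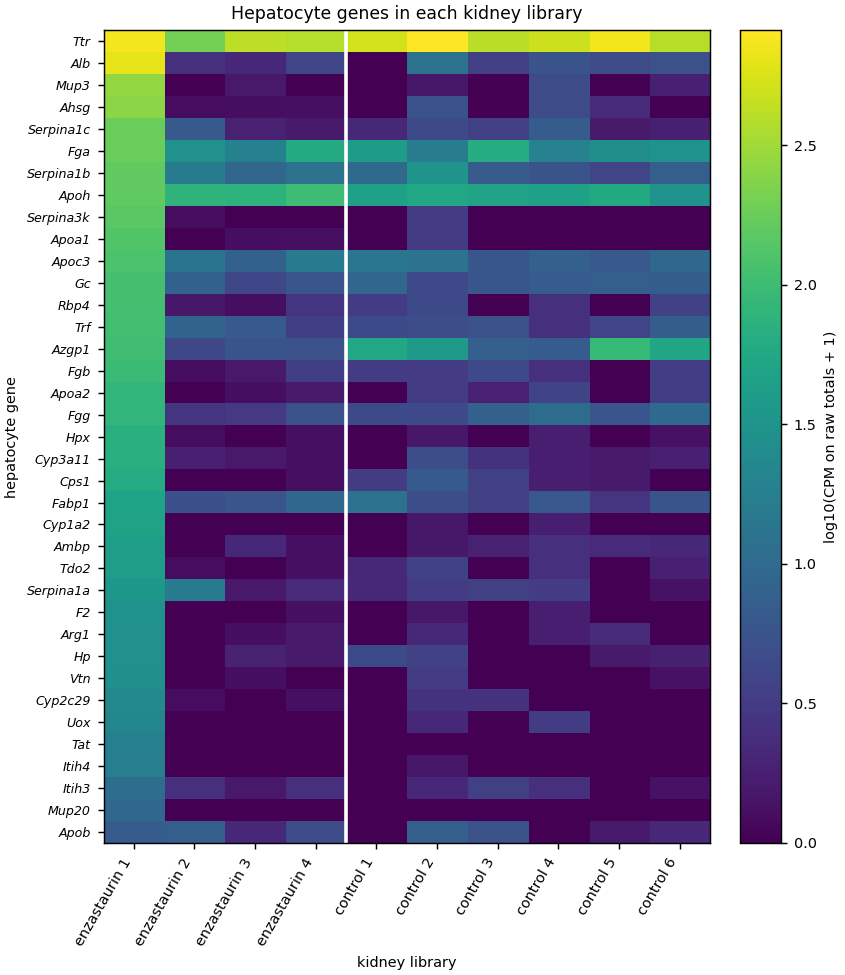
Level of 37 hepatocyte genes in each enzastaurin and control kidney library as log10(CPM on raw totals + 1), ordered by the level in enzastaurin library 1. The first column is the highest for 35 of 37 genes, with 639.5 CPM of Alb against at most 11.2 CPM in the other 9 libraries.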

How the data were processed

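The measured values were raw counts per gene of CEL-seq libraries, deposited by the authors as 1 table of 43629 Ensembl genes and 42 libraries, 30 of kidney and 12 of liver, with 0 columns left unused. Per the submitters' processing notes, bcl2fastq 1.8.4, Trimmomatic 0.32, STAR 2.5.2b, featureCounts 1.5 and the mm10 genome were used. The annotation release, the strand setting and any collapse of molecular identifiers are, in the sources used here, not given. GENCODE M21 gave 42548 symbols and the coordinates. Cyfip1 and Nipa2, Gmpr and Atxn1, and Igf2r and Airn overlap on opposite strands.

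Libraries were grouped by tissue and compound in the labels. TMM scaling and edgeR's filterByExpr kept 11719 genes, and all 30 kidney libraries entered 1 edgeR quasi-likelihood fit (edgeR 4.0.16, R 4.3.3; biological coefficient of variation 0.294), with Benjamini-Hochberg adjustment over all genes and a threshold of 0.05. Contrasts were enzastaurin minus control and enzastaurin minus the mean of the other 5 compounds. Levels are TMM-normalised CPM unless named as CPM on raw totals. Deviations by library used log2(CPM + 1). Totals of 863605 to 3828065 counts limit precision for genes of a few CPM. The fits were tested on simulated data.

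The members, the 48 gene lists and the tests were chosen with earlier results of these data known, so the lists are described by counts and medians. The naming rule took, for each contrast, genes up to 12 in each direction past 0.05 whose mean reached 5 CPM and whose 4 enzastaurin libraries were on the same side, filled by the smallest p; genes called under most alternatives; each protein kinase C isoform; from each list the 3 smallest p and the 2 highest means; the hepatocyte genes; and the 10 genes that moved most without enzastaurin library 1. The genes named are a subset of its 266 genes, picked after their values were seen, and Acot1 falls outside it. Some genes of the lists are not reported here by name.

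Alternatives were RLE scaling, DESeq2 1.42.0, limma 3.58.1 voom with sample weights, no filter, a mean of at least 5 CPM, robust empirical Bayes, only the libraries compared, the replicate number as a block, the satellite-like share as covariate, AZD8055 library 4 left out, and each library left out in turn. Chosen after seeing the data were fits of only the libraries with a satellite-like share under 0.1% or of 0.1% and more, a term for that share, and log2 total count as covariate. The chi-square per gene between libraries of a group was at least 3.67, so each counted as a sample.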

Additional observations from a re-analysis of the deposited data

Results flagged for a closer look

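Of 122 sets of 4 or 6 library values examined, 6 held a value far from the rest of its group by Dixon's criterion, and chance gives about 1 in 20. The summed level of hepatocyte genes was 4284 CPM on raw totals in enzastaurin library 1, and its satellite-like share was 2.67%, both far above enzastaurin libraries 2 to 4. Zmym2 was lowest in enzastaurin library 1, at 29.0 CPM.

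Prkca was highest in enzastaurin library 3, at 24.7 CPM, and so was Dusp11, at 63.1 CPM. Nqo1 was highest in control library 4, at 34.6 CPM.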

How the results depend on the processing

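Against control, edgeR gave 0 calls. DESeq2 gave 27, voom 154, no low-count filter 57 of 32652 genes and the replicate block 2, while the other 10 settings that kept each library of the contrast or chose libraries by satellite-like share gave 0. Leaving out 1 library of the contrast gave 0 to 60 calls, 60 without control library 2 and 18 without control library 6; the cause was not tested. Against the other compounds the count was 0, with 61 without the filter, 7 at a mean of at least 5 CPM and 5 without AZD8055 library 4, all 7 and all 5 higher in enzastaurin; leaving out 1 library gave 0 to 5. Alb and Ces1g were called in both of the last fits. Deviations of same-numbered enzastaurin and control libraries correlated at -0.006, -0.033, -0.005 and 0.022. Those of other pairs ran from -0.15 to 0.12, so these values do not settle whether the numbers pair the libraries.

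Of 66 gene changes, 54 kept their sign under each alternative run. Among only the libraries under 0.1%, with 1 control, the log2 change was 0.23 for Prkca, -0.20 for Prkcb, 0.012 for Prkci, 0.31 for Ccnl1, 0.088 for Crebzf, 0.51 for Neat1, 0.80 for Malat1, 0.010 for Vegfa and 0.23 for Slc22a30. Among only those of 0.1% or more, Prkch had -0.056. Prkcb had -0.11 with voom, and Prkcz 0.076 with the replicate block. With 1 library left out, Prkcb ranged from -0.22 to 0.50, Prkcq from -0.027 to 0.47 and Prkcz from -0.11 to 0.044. Of 1128 list medians under alternatives, 179 moved by more than the spread of the enzastaurin libraries. A gene of a few CPM rests on few counts, so a small difference was not detectable there.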
